A study of Mus musculus with 8 samples.

Results

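The genes described here are Dux, which the annotation calls Duxf3, and 8 further genes whose transcripts mark the 2-cell stage of the mouse embryo: Zfp352, Tcstv1, Tcstv3, Tdpoz3, Tdpoz4, Tmem92, Sp110 and Arg2. These 9 genes, of 55536 in GENCODE vM21, were taken as named, with earlier results of these data known. Their m6A peaks were the deposited peaks that shared at least 1 base, on the same strand, with their annotated exons. E14, a line of mouse embryonic stem cells (ESCs), was used. The cells carried a doxycycline (Dox)-inducible Dux transgene and a tdTomato reporter driven by the Mervl promoter, in the DMSO and the Dox groups alike. Cells received Dox, or DMSO as the control, for 24 h. For each treatment, 2 libraries of RNA pulled down with an anti-m6A antibody (IP) and 2 of unselected RNA (input) were sequenced, 8 libraries in 4 groups. The comparison asks where m6A lies on the messages of Dux and of its companion genes with Dux switched on by Dox and in the parallel DMSO control.

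N6-methyladenosine (m6A) is a methyl mark that a METTL3 and METTL14 complex writes into mRNA at adenosines within the motif DRACH (D is any base but C, R a purine, H any base but G), of which GGAC is a frequent core. The mark is usual in long exons and around stop codons, and YTH-domain proteins bind it and alter the stability and translation of the message. Dux is a homeobox transcription factor that opens the zygotic genome. When it is made in ESCs, a share of the cells take on a 2-cell-like state (2CLCs), in which genes that ESCs otherwise keep silent are transcribed.

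Every value below belongs to a list and not to a library. Each treatment had 1 list of peaks, in which its replicates were combined, so there is no spread between replicates and no test between DMSO and Dox. The DMSO list held 18895 peaks over 6244 genes, and the Dox list 13001 peaks over 5008 genes. The score of a peak is the value the authors gave it in a column without a name. It was read here as the −log10 p-value of IP over input, because no value was below 10 and a few were infinite, but no source used here names it. Read depth and expression were not analysed here. A gene without a peak may have little RNA, little m6A or too few reads, and the lists alone cannot tell these apart. For Dux, Zscan4a, Zscan4c and Usp17la, the paper on these data reported m6A by m6A-RIP-qPCR both with and without Dox. A missing DMSO peak over these genes is thus not a lack of m6A by that assay. As the RNA is from whole cultures, a larger share of 2CLCs and more RNA or m6A per cell cannot be told apart either. The ESC identity of the cells was checked only by the presence of peaks: Nanog, Sox2, Pou5f1, Sall4 and Esrrb carried between 1 and 7 peaks in each of the lists.

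In the Dox list, 6 of the 9 genes carried a peak, and in the DMSO list none did. The genes with a Dox peak were Duxf3 with 4, Tcstv3 and Tmem92 with 3 each, Tdpoz3 with 2, and Zfp352 and Tcstv1 with 1 each, 14 peaks that covered 2050 nt of exon. Tdpoz4, Sp110 and Arg2 had no peak in either list. Of all 22028 protein-coding genes, 22.2% carried a Dox peak and 27.5% a DMSO peak, and 0.676% carried a Dox peak and no DMSO peak. The 6 genes were thus part of a group of 149 protein-coding genes in all. Since the 9 genes were chosen with earlier results of these data known, these shares are description and no test. The 9 genes had no DMSO peak anywhere in the gene or within 5000 bp of it, on either strand. None of the 14 Dox peaks overlapped a DMSO peak, whereas 951 of the 13001 Dox peaks, or 7.32%, had no DMSO overlap.

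**Figure D1:**
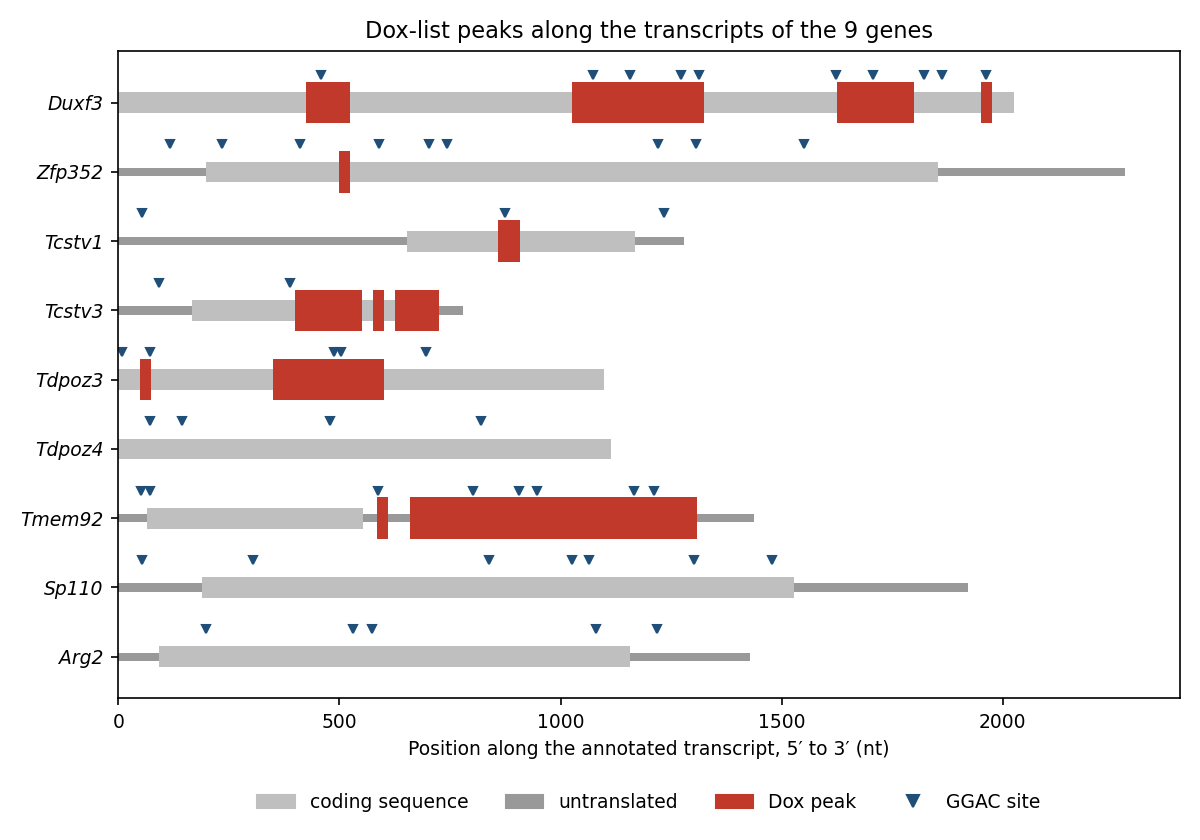
Each row is the annotated transcript with the longest coding sequence of a gene, drawn 5′ to 3′ in nt, with coding sequence as the thick grey bar and untranslated parts as the thin bar. Red boxes are Dox-list peaks and triangles are GGAC sites; Tdpoz4, Sp110 and Arg2 have sites but no peak, and the peak of Tmem92 that lies in another transcript of that gene is not drawn.

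Dux stands at the head of this set, and its message carried the most peaks. All 4 peaks of Duxf3 (ENSMUSG00000075046.7, minus strand of chromosome 10) lay in the 2025 nt open reading frame of a transcript with 1 exon, and they covered 600 nt of it, 29.6%. The sequences are shown because they hold the motifs and the repeats on which the reading of these peaks turns. They are given 5′ to 3′ on the strand of the gene from the GRCm38.p6 genome, the build of the files (mm10), with DRACH matches in capitals.
Duxf3 peak 1, chr10:58232151-58232250: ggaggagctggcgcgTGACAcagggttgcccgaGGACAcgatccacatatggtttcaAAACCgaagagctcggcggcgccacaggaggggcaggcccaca
Duxf3 peak 2, chr10:58231351-58231650: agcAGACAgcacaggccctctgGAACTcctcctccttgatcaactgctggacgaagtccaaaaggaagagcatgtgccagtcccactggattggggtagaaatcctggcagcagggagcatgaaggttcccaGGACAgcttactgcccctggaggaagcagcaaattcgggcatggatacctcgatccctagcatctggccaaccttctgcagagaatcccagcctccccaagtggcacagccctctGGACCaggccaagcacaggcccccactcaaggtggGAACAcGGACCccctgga
Duxf3 peak 3, chr10:58230876-58231050: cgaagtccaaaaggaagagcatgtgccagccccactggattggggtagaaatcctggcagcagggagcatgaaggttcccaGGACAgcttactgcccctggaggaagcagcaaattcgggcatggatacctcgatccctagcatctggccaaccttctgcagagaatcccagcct
Duxf3 peak 4, chr10:58230701-58230725: tgggagcaaatGGACAcaacacctg

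The score was 13.1 for Duxf3 peak 1, 20.6 for peak 2, 17.8 for peak 3 and 14.5 for peak 4. All were above the median of 11.5 of the Dox list. Peak 2 took rank 318 of the 13001 peaks, at the 97.6th percentile, and peak 3 took rank 508. The best-scoring peak of Duxf3 therefore lay in the middle of the reading frame, with its centre 847 nt before the stop codon, and not at its end. Peak 4, only 25 nt long, was the one next to the stop codon, with its centre 60 nt before it.

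Of the 10 GGAC sites in the Duxf3 transcript, 7 were inside peaks, which gave 1.17 sites per 100 nt inside against 0.211 outside. The sites outside, at nt 1623, 1822 and 1863, are repeat copies of those at 1074, 1273 and 1314 in peak 2. How reads were placed between the units of this repeat, described below, bears on the contrast and was not tested. Most DRACH sites lay outside: 11 of 27 were inside, 1.83 per 100 nt against 1.12. Each of the 4 peaks held at least 1 GGAC, and peak 2 held 4.

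Duxf3 contains a repeat, and peaks 2 and 3 lie on its units. The 175 nt of peak 3 matched bases 52 to 226 of peak 2 with 1 substitution, T30C, written as the base of peak 2, the position counted from the 5′ end of peak 3, and the base of peak 3. The GGAC site of peak 3 is thus found again in peak 2. The repeat is longer than peak 3: all 300 nt of peak 2 recurred in Duxf3 at chr10:58230802-58231101 with 98.3% identity. The units lie 549 nt apart. How the aligner placed reads that fit both units is not given in the sources used here, and the origin of such reads was not tested.

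Sequence of Duxf3 is also spread over its neighbours in the same array on chromosome 10. A near-identical locus, meaning a match that spans 90% or more of the peak with 98% or more identical bases, existed for each of the 4 peaks, with 1, 4, 3 and 4 such loci in the order of the peaks. Apart from the repeat in Duxf3 itself they lay in AW822073, Gm10807, Gm4981 and Gm19459, and none of these loci carried a peak in either list. Gm4981, a neighbouring Dux-like gene, had a Dox peak of its own elsewhere (chr10:58235123-58235322, score 16.4) and no DMSO peak. The cells also held the Dux transgene under Dox control. Its sequence was not analysed here, and m6A on transgenic Dux RNA and on endogenous Duxf3 RNA cannot be told apart in these peaks.

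The annotated isoforms of Duxf3 give the peaks different positions. In the other coding transcript, which is spliced, peaks 3 and 4 stayed wholly in coding exon, 38 of the 300 nt of peak 2 were in coding exon, and the remaining 262 nt and all of peak 1 were outside its exons.

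**Figure D2:**
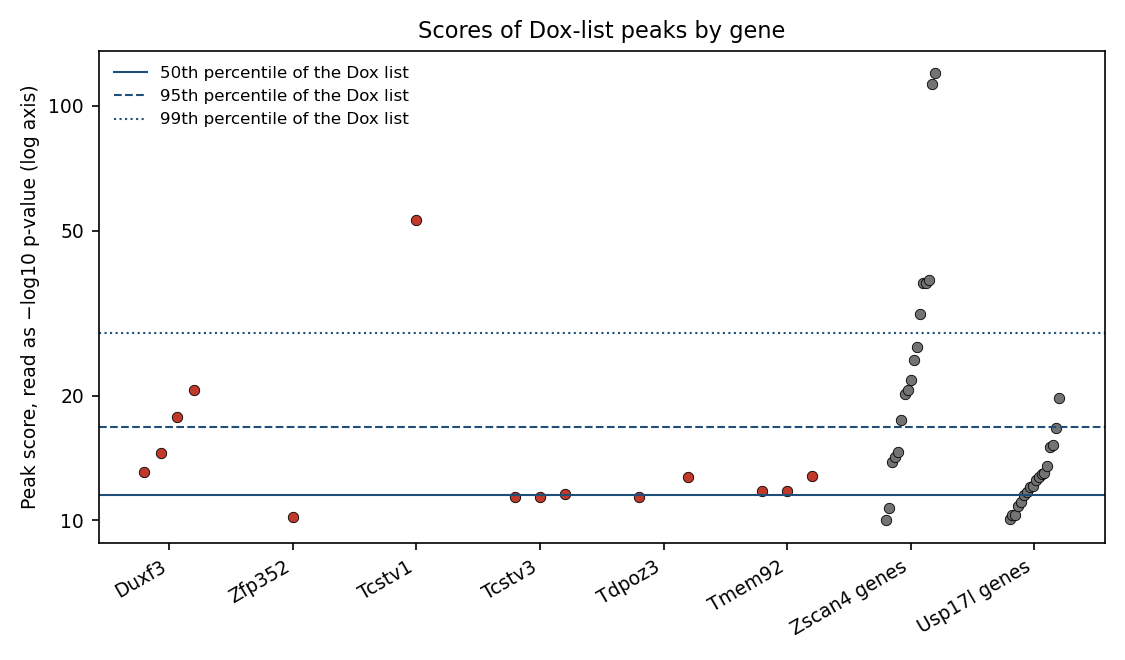
Each point is a peak of the Dox list and the y axis is its score, the authors' value read as a −log10 p-value, on a log axis. Red points are peaks of the 6 genes with a Dox peak, grey points those of the Zscan4 and Usp17l genes, and lines mark percentiles of the whole Dox list, 11.5 for the 50th, 16.8 for the 95th and 28.3 for the 99th; only Tcstv1 and 2 peaks of Duxf3 lie above the 95th among the red points.

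Tcstv1 and Tcstv3 are small genes of a family first described as 2-cell-stage variable transcripts, and they lie in a cluster on chromosome 13 with close relatives. Tcstv1 (ENSMUSG00000096284.2) had the best-scoring peak of the 9 genes. Its 50 nt peak had a score of 53.0, rank 36 of 13001 in the Dox list, and it was the best-scoring of the 951 Dox peaks that no DMSO peak overlapped. The next in that ranking were peaks of Zscan4c with 38.1, Zscan4d with 37.3 and Zscan4a with 31.5. The peak lay in coding sequence and held a single GGAC, which was also its only DRACH site.

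That stretch recurs along the cluster, and the copies are shown because they keep the motif. Capitals mark DRACH, and all are coding sequence of the gene named.
Tcstv1, chr13:119893838-119893887, minus strand: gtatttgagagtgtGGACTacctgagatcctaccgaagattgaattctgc
Gm21761, chr13:119912496-119912545, minus strand: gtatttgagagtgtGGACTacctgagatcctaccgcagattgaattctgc
Gm20767, chr13:120154834-120154883, plus strand: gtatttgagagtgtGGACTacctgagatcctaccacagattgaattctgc
AF067061, chr13:120264009-120264058, plus strand: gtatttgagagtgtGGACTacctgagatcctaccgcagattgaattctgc
Tcstv3, chr13:120317774-120317823, plus strand: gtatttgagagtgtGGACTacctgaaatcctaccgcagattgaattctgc

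The GGACT site was the same in all of these and in Gm21818. Gm21761 and AF067061 differed from Tcstv1 at 1 base of the 50, and Gm20767, Gm21818 and Tcstv3 at 2. The Dox peak over the stretch had a score of 12.9 in Gm21761, 20.6 in Gm20767, 16.1 in Gm21818, 16.9 in AF067061 and 11.6 in Tcstv3. All 6 genes thus carried a Dox peak over at least part of this stretch, and Tcstv1 had the highest score. In Tcstv3 the peak covered only part of the stretch and began past its GGACT site. At 2 further copies outside annotated genes there was no peak.

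The stretch was not free of DMSO peaks in the cluster. Gm21761 had a 25 nt DMSO peak with a score of 11.1 at chr13:119912520-119912544, inside the copied stretch and over its GGACT, and another at chr13:119912220-119912244 with a score of 10.7 and no motif. The Dox peak of Gm21761 over the same stretch was 650 nt long. Over the 25 nt of the DMSO peak that scored 11.1, Tcstv1, Gm21761, Gm20767, Gm21818 and AF067061 have the same sequence. Which of these genes its reads came from was not tested. A copy of any of the 14 peaks, counted from 95% identity over 50% of the peak, was held by 16 other genes. Of these 16, 7 had a Dox peak and 1, Gm21761, a DMSO peak, beside 22.2% and 27.5% of all protein-coding genes. The 16 include pseudogenes and a lincRNA, none of which had a peak, so the protein-coding background is not of the same make-up. In Gm4981 and AF067063 the Dox peak lay outside the copy.

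**Figure D3:**
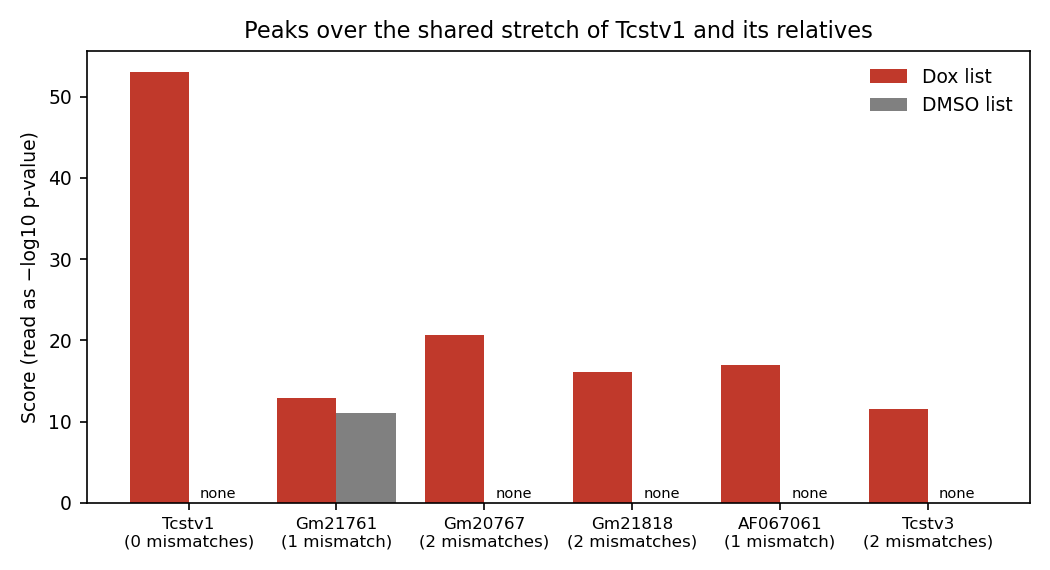
Bars give the score (read as a −log10 p-value) of the peak that overlaps the stretch of the Tcstv1 peak, or its copy, in 6 genes of the cluster, red for the Dox list and grey for the DMSO list, with "none" where the DMSO list had no peak. Tcstv1 reaches 53.0, the other genes 11.6 to 20.6, and only Gm21761 has a DMSO peak (11.1). The Tcstv3 peak covers only part of the stretch and not its GGACT site.

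Tcstv3 (ENSMUSG00000095821.2) had 3 peaks of 150, 25 and 100 nt in a row, parted by gaps of 25 nt, over a stretch of 325 nt that ended past the stop codon. Their scores were 11.6, 11.4 and 11.4, all close to the list median of 11.5. Together they covered 35.3% of the exonic length. Peak 3 was the only peak of the 14 that covered a stop codon, with 52 nt in coding sequence and 48 nt in the 3′UTR. None of the 3 held GGAC; they held 3, 1 and 2 DRACH sites.

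Tcstv1 and Tcstv3 were 89.9% identical over the 754 aligned nt of their transcripts. The Tcstv1 peak and the peak 1 of Tcstv3 lay side by side in this alignment and shared 24 nt, and the GGAC they have in common was upstream of the start of the Tcstv3 peak. The 25 nt of Tcstv3 peak 2 (chr13:120317975-120317999), shown because it was found unchanged at 8 other loci, was the following.
Tcstv3 peak 2: acctgtgatggtggAGACTgccctg
Of these loci 7 lay in the cluster on chromosome 13 and 1 in the lincRNA Gm8953 on chromosome 5.

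Zfp352, a zinc finger gene with an intronless reading frame, had the lowest-scoring peak. Its 25 nt peak (chr4:90223927-90223951, plus strand) had a score of 10.2, rank 12485 of 13001, at the 3.97th percentile. It was the only peak of the 14 without a DRACH match. The sequence is given to show this.
Zfp352 peak 1: caacagcgcccctcagatatgcctt
The transcript, of 2276 nt, had 76 DRACH and 9 GGAC sites, none of which lay under the peak. It was also the only peaked gene of the set in which no other locus of at least 95% identity was found. Of the 2148 Dox peaks of 25 nt in the whole list, 45.1% held DRACH and 15.3% GGAC.

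Tdpoz3 and Tdpoz4 belong to a family with a TRAF domain and a POZ domain, related to the substrate adaptors of cullin ubiquitin ligases. They are neighbours on chromosome 3, each with 1 exon, 1098 nt in Tdpoz3 and 1113 nt in Tdpoz4. Tdpoz3 (ENSMUSG00000058005.3) had a 25 nt Dox peak near the start of its reading frame, which scored 12.7, and a 250 nt peak further on, which scored 11.4 (chr3:93826370-93826619). Tdpoz4 (ENSMUSG00000060256.1) had none. Among Tdpoz1, Tdpoz2, Tdpoz5, Gm4858, Gm9116, Gm9117 and Gm9125, relatives of both, no gene had a peak in either list.

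The sequences of Tdpoz3 and Tdpoz4 were 78.9% identical over 1093 aligned nt, and 7 of the 16 DRACH sites of Tdpoz3 had a DRACH site at the same place in Tdpoz4. The shorter peak is shown with its counterpart, as the GGACC site was kept in the gene that had no peak.
Tdpoz3 peak 1, chr3:93826070-93826094, plus strand: ccagaaattctgctataattGGACC
Tdpoz4 counterpart, chr3:93796448-93796472, plus strand: acagaaattgtgctacaggtGGACC
These differed at 5 of 25 bases. In the longer peak the identity was 71.4%, and of its 6 DRACH sites 1 was kept in Tdpoz4 and of its 2 GGAC sites none. Over the whole transcript Tdpoz4 had more DRACH sites than Tdpoz3, 27 against 16, and nearly as many GGAC sites, 4 against 5. Each Tdpoz3 peak also had a near-identical locus in the pseudogene Gm4982, which had no peak.

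Tmem92 encodes a predicted membrane protein. It differed from the other genes in where its peaks lay. Peak 3, of 650 nt, was the longest of the 14 (chr11:94777892-94778541, minus strand) and lay wholly in the 3′UTR, with a score of 12.8. Peak 2, of 25 nt (score 11.8), lay in the 3′UTR too, with its centre 45 nt past the stop codon. Peak 1, of 150 nt (score 11.8), was in the 5′UTR of transcript ENSMUST00000100554.7 and outside the transcript with the longest coding sequence. It was the only 5′UTR peak of the set, and it held 2 DRACH sites and no GGAC. Peaks covered 37.7% of the exonic length, the highest share among the genes. Peak 3 alone held 24 DRACH and 5 GGAC sites. Along the transcript, DRACH was found 3.85 times per 100 nt under peaks against 1.57 elsewhere, and GGAC 0.889 against 0.262. Peak 3 had no near-identical locus, whereas peak 2 had 3, in Gm11546, AA623943 and A430060F13Rik, all pseudogenes without a peak.

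**Figure D4:**
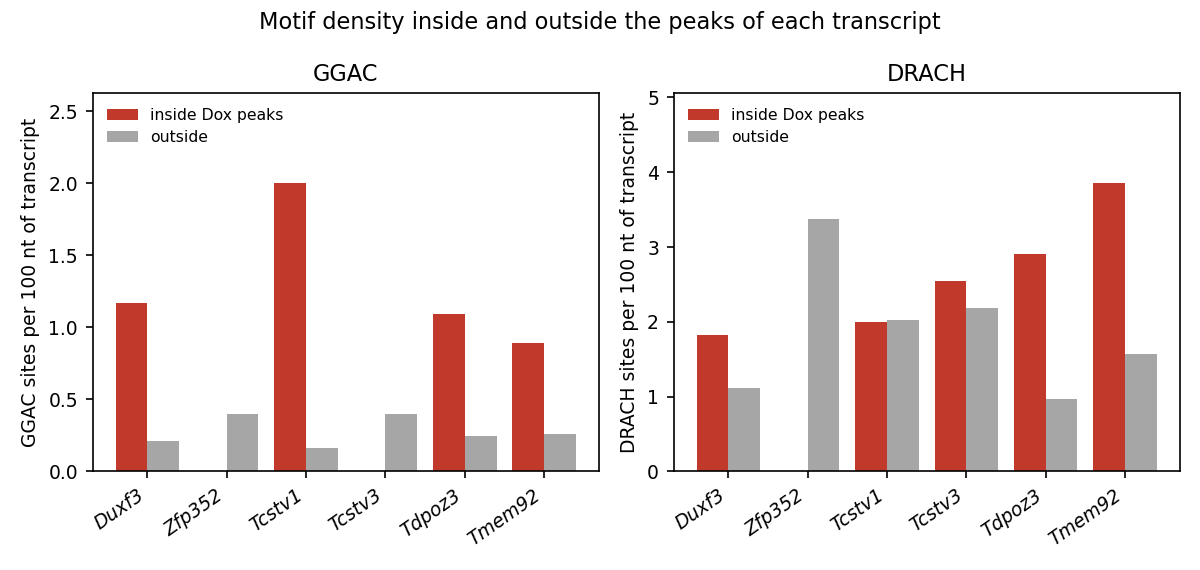
Bars give the number of GGAC (left) and DRACH (right) sites per 100 nt of transcript, inside the Dox peaks in red and outside in grey, for the 6 genes with a peak. GGAC is denser inside peaks in Duxf3, Tcstv1, Tdpoz3 and Tmem92 and absent from the peaks of Zfp352 and Tcstv3. In Tcstv1 this rests on 1 site in 50 nt, and its DRACH density is 2.00 inside against 2.03 outside.

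Sp110, a nuclear body protein of the SP100 family, and Arg2, the mitochondrial arginase that turns arginine into ornithine and urea, had no peak in either list. Motifs were present in both: the transcript of Sp110 had 52 DRACH and 7 GGAC sites and that of Arg2 had 27 and 5. The number per 100 nt, 2.71 DRACH for Sp110 and 1.89 for Arg2, was within the range of the peaked genes, 1.33 in Duxf3 to 3.34 in Zfp352. Over the protein-coding transcripts of each gene, the longest exon was 447 nt in Sp110 and 476 nt in Arg2, and 640 to 2120 nt in the 6 genes with a peak. In Sp110 this rests on leaving out noncoding transcripts, of which one has an exon of 2284 nt. Tdpoz4, with an exon of 1113 nt, had no peak, and Tmem92 peak 1 lay in an exon of 349 nt. Over protein-coding genes as a whole, 14.0% of the 4603 genes with a longest exon under 500 nt, in the transcript with the longest coding sequence, carried a Dox peak, 20.6% from 500 nt to under 1000 nt, 24.7% from 1000 nt to under 2000 nt and 26.7% at 2000 nt or more, classes that were chosen after the exons of the 9 genes were seen. Sp100, Sp140 and Arg1, the relatives of these genes, likewise had no peak in either list.

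Over the 14 peaks, motif content was close to that of the whole list, without matching for length. Peaks of 25 nt made up 35.7% of the 14 and 16.5% of the list. Of the 25 nt peaks in the list, 15.3% held GGAC and 45.1% DRACH. GGAC was found in 9 of 14, 64.3% (Wilson 95% interval 38.8 to 83.7), against 55.9% of all Dox peaks, and DRACH in 13 of 14, 92.9% (68.5 to 98.7), against 85.4%. The intervals cover counting error only, and the peaks are not independent, since they share genes and repeats. The median length was 100 nt against 125 nt, and the median score 12.2 against 11.5. Coding sequence held 57.4% of the peak bases, against 71.3% over the list, and the 650 nt peak of Tmem92 made up most of the bases in the 3′UTR. Of the 14 peaks, 5 had their centre within 200 nt of a stop codon, among them Tcstv3 peak 1 at exactly 200 nt. The share over the whole list was not computed, so this count cannot be read as high or low.

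Near-identical loci existed for 9 of the 14 peaks, 64.3%, against 8.15% of all Dox peaks. The share was 11 of 17 (64.7%) for the Dox peaks of the Zscan4 genes and 7 of 18 (38.9%) for those of the Usp17l genes, so it was not particular to the 9 genes. No test was made, as peaks of a gene are not independent and peaks 2 and 3 of Duxf3 match each other. Duxf3, Tcstv1 and Tdpoz3 had them at each of their peaks. The 5 peaks without a near-identical locus were those of Zfp352, peaks 1 and 3 of Tcstv3 and peaks 1 and 3 of Tmem92.

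**Figure D5:**
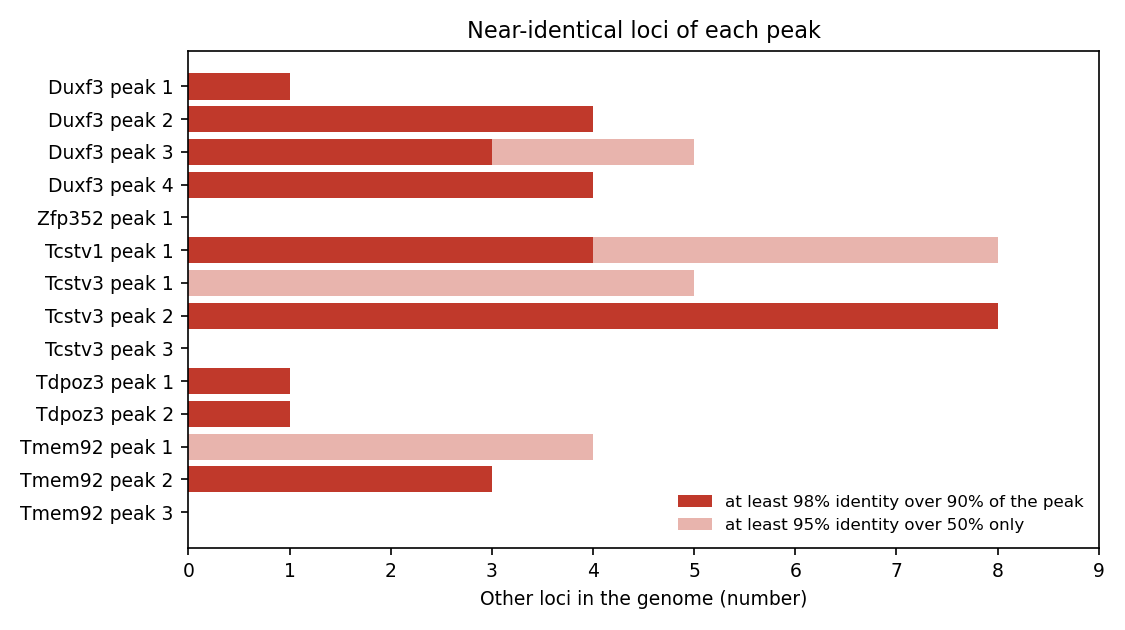
Bars give the number of other loci in the genome that match each of the 14 peaks, dark red at 98% identity over 90% of the peak and light red for those added at 95% over 50%. Tcstv3 peak 2 has 8 near-identical loci, and none was found at either level for Zfp352 peak 1, Tcstv3 peak 3 and Tmem92 peak 3.

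Set beside other gene families of the 2-cell stage, the 9 genes had counts close to those of the Usp17l genes, a family of deubiquitinases. All 5 Usp17l genes had Dox peaks, 18 in all, and none had a DMSO peak, and their median score was 12.3, with 19.7 as the highest. The Zscan4 genes, zinc finger and SCAN domain factors that mark 2CLCs, differed in carrying m6A peaks under DMSO. Of the 6 Zscan4 genes, 5 had Dox peaks (17 in all) and 4 had DMSO peaks (13 in all). Their median Dox score was 21.8 and the highest 120, in Zscan4b. Of the 17 Dox peaks of Zscan4, 13 had no DMSO overlap, 76.5%, against 14 of 14 in the genes described here. With 1 list per treatment and peaks that share genes, these values stand side by side with no test.

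In the wider list of 31 other genes of the 2-cell-like state, Zscan4 and Usp17l included, 29 were annotated. Of these, 22 (75.9%) had a Dox peak, 11 (37.9%) a DMSO peak, and 12 (41.4%) a Dox peak without a DMSO peak, beside 22.2%, 27.5% and 0.676% of all protein-coding genes. A list of 20 further annotated genes had been drawn up as relatives of the 9. It left out Gm21761, Gm20767 and Gm21818, and it held Gm20765, which lies on chromosome 10 far from Duxf3 and shares no copy of the 14 peaks. Of these 20 genes, 6 (30.0%) had a Dox peak, beside 22.2% of all protein-coding genes: Duxbl3, Gm4981, AF067061, AF067063, BC147527 and Gm20765. Within this list Gm20765 alone had DMSO peaks, 1 gene of 20, beside 27.5% of all protein-coding genes. The remaining 5 of the 6 had a Dox peak without a DMSO peak, a pattern found in 0.676% of all protein-coding genes. AF067061, AF067063 and BC147527 hold copies of Tcstv3 peaks and Gm4981 of a Duxf3 peak, so they are not separate observations. Both lists include pseudogenes, which the protein-coding background leaves out. As the lists were chosen with earlier results of these data known, the shares are description and no test.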

How the data were processed

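MeRIP-seq libraries (2 per group) were made from poly(A) RNA with a protocol that keeps strand. The authors processed reads with fastp 0.19.4 and HISAT2 2.2.1, against mm10, and called peaks with exomePeak2, whose version, settings and way of combining replicates are not given in the sources used here. They deposited 1 list of spliced peaks per treatment. The unnamed value column deposited by the authors was read as −log10 p-value from its range; whole-list infinite values (1 Dox, 3 DMSO) were kept in ranks. The members and gene lists were chosen with earlier results of these data known.

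Peaks were intersected with GENCODE vM21 exons on the same strand (at least 1 base). Regions followed the transcript with the longest coding sequence. Motifs were searched on the strand of the peak, overlaps allowed; 4 Dox and 7 DMSO peaks on an unplaced sequence were not searched. Near-identical loci came from blastn 2.17.0 (megablast, word size 24, which needs 24 matching bases in a row). Paralogs were aligned globally with free end gaps. Python 3.11.15, scipy 1.17.1 and matplotlib 3.10.9 were used. Gene, region and motif steps were tested on simulated data: 563 of 563 placed peaks and 200 of 200 planted motifs were recovered. Depth is unknown here, so peak numbers of the lists carry it.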

Additional observations from a re-analysis of the deposited data

How the results depend on the processing

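Of 33 alternatives for 7 results, 28 were called the same and 5 moved. For counts, the same meant within a factor of 1.5. The number of DMSO peaks and of genes with a DMSO peak was 0 under every alternative run: a score threshold, equal list sizes, a 50% overlap, either strand, introns, and, chosen after seeing the data, RefSeq exons and no peaks of 25 nt. The threshold, equal sizes, 50% overlap and no 25 nt peaks can only take peaks away, so 0 was fixed there in advance. Those fixed outcomes are counted among the 28. Only either strand, introns and RefSeq exons could have raised the DMSO counts. Without peaks that have a near-identical locus, the genes with a Dox peak went from 6 to 3 (Zfp352, Tcstv3 and Tmem92) and the Dox peaks from 14 to 5. The Dox peaks numbered 9 with a threshold at the DMSO median of 11.6, and 9 without peaks of 25 nt. With DRACH in place of GGAC, the share of peaks with the motif was 92.9% in place of 64.3%. It was called moved, as it lay outside the counting interval of 38.8 to 83.7, though within a factor of 1.5. No paired analysis was possible because replicates had been combined into 1 list for DMSO and 1 for Dox, which also kept any replicate from being left out. Depth, RNA level and the origin of reads among copies were not tested.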
